A study of Mus musculus with 6 samples.

Results

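The genes described here encode the Tie receptors, their angiopoietin ligands and 2 related secreted proteins. They were chosen by name, as the 6 symbols *Tek*, *Tie1*, *Angpt1*, *Angpt2*, *Angptl4* and *Svep1*, out of 23183 gene symbols in the expression files. RNA sequencing was performed on cerebral microvessels from 3 WT and 3 TEKCRIF1 KO samples to ask which transcripts change when the mitochondrial factor *Crif1* is deleted in endothelial cells (ECs). WT mice were TEK-cre, *Crif1*+/+ and KO mice were TEK-cre, *Crif1* flox/flox, so both groups carried the Cre transgene. All samples were labelled C57BL/6 with no treatment, and each group held 3 mice, 1 per library. The age of these mice is not given in the sources used here. Cre in this strain is driven by the *Tek* promoter, which is known to be active in ECs and also in cells of the blood lineage. The microvessels were enriched from homogenized brain by centrifugation in dextran and retention on a strainer, without a cell sort, so they carry mural and other cells besides ECs.

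*Tek* encodes Tie2, a receptor tyrosine kinase of ECs. Its ligand angiopoietin-1 comes mainly from pericytes and other perivascular cells and activates Tie2 to keep vessels quiescent and tight, whereas angiopoietin-2 is stored and released by ECs themselves and commonly opposes this signal. Tie1 resembles Tie2, binds no angiopoietin with high affinity and modulates Tie2 in the same membrane. *Angptl4* encodes a secreted protein of related structure that does not bind Tie2 and inhibits lipoprotein lipase. *Svep1* encodes a large extracellular matrix protein that is a ligand of Tie1.

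The *Tek* sequence is shown because the promoter of this gene directs the deletion in these mice, and the endogenous gene is at the same time one of the genes measured. The 250 bases immediately before the annotated start of *Tek*, from RefSeq on GRCm38 and printed 5′ to 3′ on the plus strand, lie at chr4:94739039-94739288. Capitals mark the core of the binding motif of ETS factors, GGAA on either strand, which reads TTCC on the printed strand. The transgene itself was not sequenced here.
Tek: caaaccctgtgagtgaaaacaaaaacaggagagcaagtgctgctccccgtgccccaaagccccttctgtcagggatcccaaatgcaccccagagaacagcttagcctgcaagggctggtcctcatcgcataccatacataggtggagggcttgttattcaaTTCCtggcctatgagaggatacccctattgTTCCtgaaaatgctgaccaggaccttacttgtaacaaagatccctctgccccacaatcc
The ETS core GGAA was found 2 times in this stretch, GATA was found 1 time, and the FOXO core GTAAACA was not found, with both strands searched and no overlap between the motifs. Of 32851 promoter windows of the same length, 93.4% held GGAA at least 1 time with a median of 3 matches, 53.6% held GATA and 3.17% held GTAAACA. Windows were also found for *Tie1* and *Svep1*. That of *Tie1* held 7 matches to GGAA and none to GATA or GTAAACA, and that of *Svep1* held 6 to GGAA, 2 to GATA and none to GTAAACA. As many GGAA matches as in *Tie1* or more were found in 3.82% of windows, and as many as in *Svep1* or more in 8.69%. The *Tek* window was not unusual in this respect, since 76.8% of windows held at least as many. These matches describe letters and not bound sites.

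On GRCm38, *Tek* lies on chromosome 4 from 94739289 to 94874976 on the plus strand, and its longest annotated transcript has 23 exons. *Tie1* (chromosome 4, 118471191 to 118490061) and *Svep1* (chromosome 4, 58042442 to 58206859) lie on the same chromosome on the minus strand. *Angpt1* lies on chromosome 15 from 42424723 to 42676977, *Angpt2* on chromosome 8 from 18690263 to 18741562 and *Angptl4* on chromosome 17 from 33773750 to 33781830, all on the minus strand. *Angpt2* sits inside *Mcph1* on the opposite strand without sharing exon sequence. Exons of *Angpt1* and *Svep1* overlap the opposite-strand noncoding genes *Gm17473* and *Gm26889*, neither of which has a row in the files. The library kit kept strand, but whether strand was used in counting is not given in the sources used here.

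Values are FPKM, fragments per kilobase of transcript scaled to the mapped reads of the library, so that levels can be compared between genes of different length. The libraries held an estimated 6400000 to 11600000 fragments, a depth at which 3 fragments on 1 kb equal 0.259 to 0.471 FPKM, counting error only. The targeted gene *Gadd45gip1*, the mouse symbol of *Crif1*, ranged from 15.3 to 18.8 FPKM in the WT group and from 7.54 to 10.8 FPKM in the KO group, a log2 fold change of −0.77 ± 0.22 (SE; limma adjusted p = 0.841). The filter, a mean of 1 FPKM or more, left 14247 genes to test. At an adjusted p under 0.05 limma called 0 of them (0%), and at an unadjusted p under 0.05 it picked 838 (5.88%), a count that was 450 without WT 2, 510 without KO 1 and 1871 without KO 2. The adjusted count was 1 without WT 3, 4 without KO 2 and 4 without KO 3. In 812 genes (5.7%) every KO library was below every WT library, and in 765 (5.37%) every KO library was above. Values of single libraries are given in the order WT 1, WT 2, WT 3, KO 1, KO 2, KO 3, and all fold changes are on the log2(FPKM + 1) scale, which understates the change of low genes.

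All 6 genes of the Tie and angiopoietin group were expressed in all 6 libraries and passed the filter, and none differed between WT and KO mice beyond the spread between libraries. Each of the 6 had a lower mean in KO mice, with log2 fold changes from −0.52 for *Svep1* to −0.11 for *Tek* and a median of −0.26, where 50.8% of all genes tested were lower and the median of all genes was −0.006. None of the 6 reached an unadjusted p under 0.05, and in none did the WT and KO values separate, so these differences in the mean describe the libraries only. *Angpt1* was the member whose direction turned when a library was left out.

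**Figure D1:**
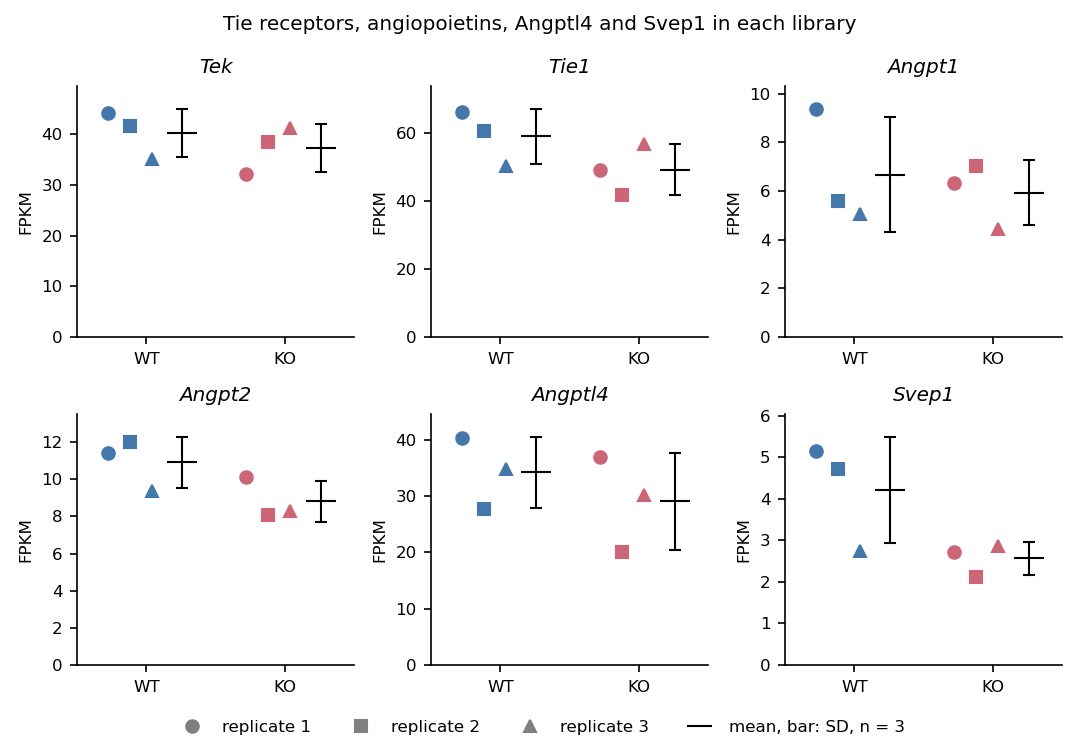
FPKM of each of the 6 genes (y axes from 0) in WT libraries (blue) and KO libraries (red), 1 point per library, with the mean and SD (n = 3) beside the points. The WT and KO points overlap in every panel, from *Tie1* at 41.7 to 66.2 FPKM down to *Svep1* at 2.12 to 5.16 FPKM.

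*Tek* was measured at 44.2, 41.7 and 35.1 FPKM in the 3 WT libraries and at 32.2, 38.4 and 41.3 FPKM in the 3 KO libraries. The values interleaved, with the lowest in KO 1 and the next lowest in WT 3. The means were 40.3 ± 4.72 FPKM in the WT group and 37.3 ± 4.66 FPKM in the KO group (SD, n = 3), a log2 fold change of −0.11 ± 0.20 (SE; limma adjusted p = 0.958; exact permutation test, two-sided, p = 0.5). The 95% interval of the fold, 0.684 to 1.26, bounds the difference that these libraries could have missed. The log2 fold change of *Tek* was −0.01 without KO 1 and −0.04 without WT 1, and −0.20 without WT 3 and −0.19 without KO 3. The mRNA of the endogenous gene whose promoter directs Cre was thus present in both groups, in the mean higher than 87.3% of genes tested in WT mice and 86.0% in KO mice. The level of Cre itself was not analysed here.

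*Tie1* had the highest level of the 6 genes, at 66.2, 60.5 and 50.3 FPKM in the WT group and 49.1, 41.7 and 56.7 FPKM in the KO group. KO 3 exceeded WT 3, while the other KO libraries lay below every WT library. The means were 59.0 ± 8.07 and 49.2 ± 7.50 FPKM, with a log2 fold change of −0.26 ± 0.21 (limma adjusted p = 0.881; exact permutation p = 0.2). With 3 libraries against 3, the exact test cannot go below 0.1. The *Tie1* transcript is the richest in G and C of the 6 at 57.6%, and the libraries differed in how relative level depended on GC content. Relative level is a gene's deviation from its own mean over the 6 libraries, and not the level itself. With this centring, positive correlations in some libraries go with negative ones in others partly by construction. Relative level and GC content, across 14165 genes, had Spearman correlations of 0.084 to 0.313 in WT and −0.247 to −0.027 in KO libraries. After each library was corrected for that trend, the log2 fold change of *Tie1* was −0.11. It was −0.15 without KO 2 and −0.17 without WT 1, against −0.37 without either WT 3 or KO 3.

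The level of *Angpt1*, the activating ligand, was 9.38, 5.58 and 5.05 FPKM in the WT group and 6.35, 7.02 and 4.43 FPKM in the KO group. WT 1 stood well above the other 5 libraries, and the KO values spread on both sides of WT 2 and WT 3. The means were 6.67 ± 2.36 and 5.93 ± 1.35 FPKM, with a log2 fold change of −0.12 ± 0.28 (limma adjusted p = 0.965; exact permutation p = 0.8). Without WT 1 the log2 fold change was 0.12 and without KO 3 it was 0.04, so no direction can be given for *Angpt1*. In a bulk sample, fewer cells of a type and less RNA per cell cannot be told apart, which bears on this pericyte transcript and on the endothelial ones alike.

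The antagonist *Angpt2* was measured at 11.4, 12 and 9.36 FPKM in the WT group and 10.1, 8.09 and 8.28 FPKM in the KO group. A single pair of libraries crossed, with KO 1 above WT 3. The means were 10.9 ± 1.40 and 8.82 ± 1.1 FPKM, with a log2 fold change of −0.28 ± 0.21 (limma adjusted p = 0.877; exact permutation p = 0.2) and a 95% interval of −0.76 to 0.19. An estimated 180 to 470 fragments per library stood behind these values.

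*Angptl4* was measured at 40.3, 27.7 and 34.8 FPKM in the WT group and 37.0, 20 and 30.2 FPKM in the KO group. Both groups held a low library, WT 2 and KO 2, and KO 1 came second of all 6. The means were 34.3 ± 6.35 and 29.1 ± 8.57 FPKM, with a log2 fold change of −0.26 ± 0.26 (limma adjusted p = 0.919; exact permutation p = 0.6). KO 2 set much of this difference, which was −0.02 without it, while without KO 1 it was −0.45.

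*Svep1* had the lowest level and the largest difference of the 6 genes, at 5.16, 4.73 and 2.75 FPKM in the WT group and 2.73, 2.12 and 2.86 FPKM in the KO group. WT 3 lay among the KO libraries, whereas WT 1 and WT 2 stood above all others. The means were 4.21 ± 1.28 and 2.57 ± 0.397 FPKM, with a log2 fold change of −0.52 ± 0.30 and a 95% interval of −1.18 to 0.14 (limma adjusted p = 0.841; exact permutation p = 0.2). Without WT 3 the log2 fold change was −0.74, with a limma unadjusted p of 0.0425 and an adjusted p = 0.968.

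Fibroblast markers are given beside *Svep1*, and limma called none of them at an adjusted p under 0.05, with 1 of 6 at an unadjusted p under 0.05. All 6 fibroblast markers had lower means in KO mice, with a median log2 fold change of −0.38, and their summed level was 1330 to 2040 FPKM in the WT group and 910 to 1260 FPKM in the KO group, with no marker at 0. The collagen I chains *Col1a1* and *Col1a2* supplied most of this sum. In these 2 every KO library lay below every WT library, an arrangement found in 5.7% of all genes tested. The other fibroblast markers had overlapping groups, with log2 fold changes from −0.45 to −0.05. WT 3 held the lowest sum of the WT libraries, as it did for *Svep1*. Relative to the mean of these markers in the same library, on the log2(FPKM + 1) scale, *Svep1* was at −4.80, −4.53 and −4.79 in the WT group and −4.91, −4.76 and −4.80 in the KO group. That difference was −0.12 (exact permutation p = 0.4) and the groups overlapped. It was added after the values were seen. The part of fibroblast content in the difference of *Svep1* was not tested.

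**Figure D2:**
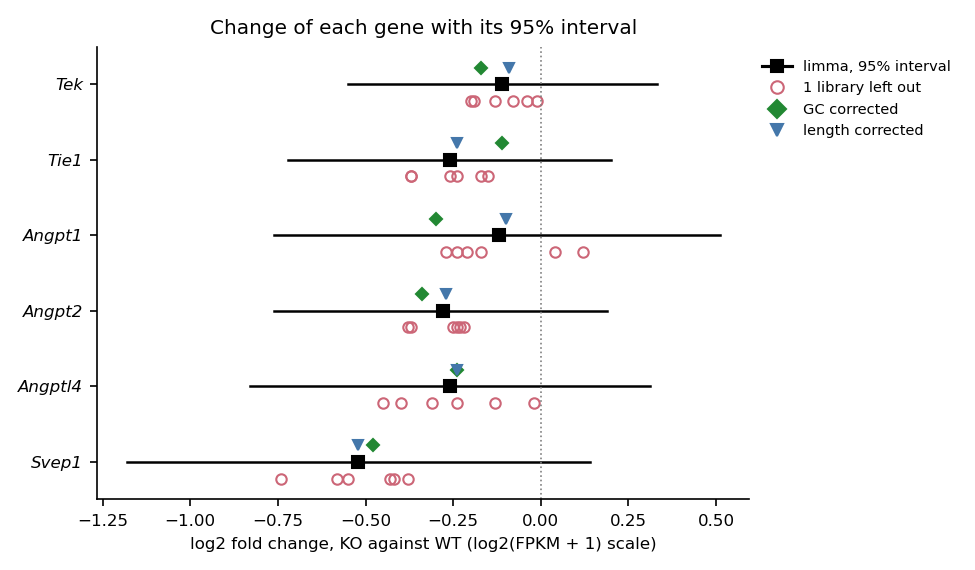
Log2 fold change of each gene, KO against WT, on the log2(FPKM + 1) scale. Black squares with lines give the limma estimate and its 95% interval, open circles the estimate with 1 library left out, green diamonds that after correction for GC content and blue triangles that after correction for transcript length. Every interval includes 0, and open circles lie on both sides of 0 for *Angpt1*.

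The order of levels was *Tie1*, *Tek*, *Angptl4*, *Angpt2*, *Angpt1* and *Svep1*, from high to low. *Tie1* exceeded *Tek* in 6 of 6 libraries, although the lowest *Tie1* value of 41.7 FPKM lay below the highest *Tek* value of 44.2 FPKM. *Tek* exceeded *Angptl4* in 5 of 6 libraries, and these neighbours did not differ beyond their spread. A gap followed, since the lowest *Angptl4* value of 20 FPKM was above the highest *Angpt2* value of 12 FPKM. *Angpt2* exceeded *Angpt1*, and *Angpt1* exceeded *Svep1*, in 6 of 6 libraries, with ranges that overlapped in both cases. The receptors thus stood several-fold above both angiopoietin ligands in every library.

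Libraries of the same group differed in a shared way across the genes. WT 1 held the highest WT value for 5 of the 6 genes and WT 3 the lowest for 5. KO 2 held the lowest KO value for 4 of the 6. KO 2, at 6400000 estimated fragments, was also the shallowest library. Its relative level had the highest Spearman correlation with transcript length, 0.291, against −0.294 in KO 1, −0.142 in KO 3 and 0.016 to 0.05 in WT libraries. The correlation with GC content was the lowest in KO 2, at −0.247. The part of depth, length or GC content in the low values of KO 2 was not tested. The coefficient of variation between libraries ranged from 11.7% for *Tek* to 35.4% for *Angpt1* in WT mice and from 12.5% for *Tek* and *Angpt2* to 29.5% for *Angptl4* in KO mice.

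Ratios within a library cancel a scaling that the library applies to both genes alike. The ratio of antagonist to activating ligand, *Angpt2* to *Angpt1*, was 1.22, 2.16 and 1.85 in the WT group and 1.59, 1.15 and 1.87 in the KO group. *Angpt2* mRNA was the higher in all 6 libraries, and the groups spanned much the same range. The log2 ratio was 0.76 ± 0.43 for WT and 0.59 ± 0.36 for KO (exact permutation p = 0.6). The ratio of *Tie1* to *Tek* was 1.5, 1.45 and 1.43 in the WT group and 1.52, 1.09 and 1.37 in the KO group. Without GC correction this ratio was nearly constant between WT libraries and low in KO 2 (exact permutation p = 0.5). After correction for GC content, an alternative added after the values were seen, the difference of the log2 ratio turned from −0.15 to 0.05 (exact permutation p = 0.8). The corrected log2 ratios were 0.53, 0.35 and 0.43 in the WT group and 0.68, 0.28 and 0.50 in the KO group. KO 2 was then still the lowest but close to WT 2, and the WT values were further apart. *Angpt1* to *Tek* was 0.212, 0.134 and 0.144 in the WT group and 0.197, 0.183 and 0.107 in the KO group (exact permutation p = 1.0). Here WT 1 and KO 1 had the highest ratios of their groups. After GC correction the differences of the log2 ratios were −0.03 for *Angpt2* to *Angpt1* and −0.14 for *Angpt1* to *Tek*.

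The endothelial genes were also set against the mean of 10 endothelial markers, and *Angpt1* against 10 pericyte markers, as differences of log2(FPKM + 1). The endothelial mean includes *Cdh5*, whose log2 fold change of −1.03 (limma adjusted p = 0.841) was the lowest of that list, where the highest was 0.37. A mean without *Cdh5* was not computed. *Tek* was at −0.81, −0.88 and −0.89 in the WT group and −1.18, −0.56 and −0.67 in the KO group. The WT values lay close together while the KO values lay on either side of them, and the difference of the means was 0.06 (exact permutation p = 0.9). *Tie1* differed by −0.09 (exact permutation p = 0.5) and *Angpt2* by −0.11 (exact permutation p = 0.3) relative to the same markers. These values depended on the marker, since relative to *Pecam1* alone the differences were −0.20 for *Tek* (exact permutation p = 0.5), −0.35 for *Tie1* (exact permutation p = 0.1, the smallest possible) and −0.37 for *Angpt2* (exact permutation p = 0.2). Relative to the median of the 10 markers they were 0.13, −0.02 and −0.04. *Angpt1* differed by 0.12 relative to the pericyte markers (exact permutation p = 0.8) and by 0.27 relative to *Pdgfrb* alone (exact permutation p = 0.5). Adjusted over these 7 ratios and relative levels, each of the exact permutation p-values was 1.0.

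**Figure D3:**
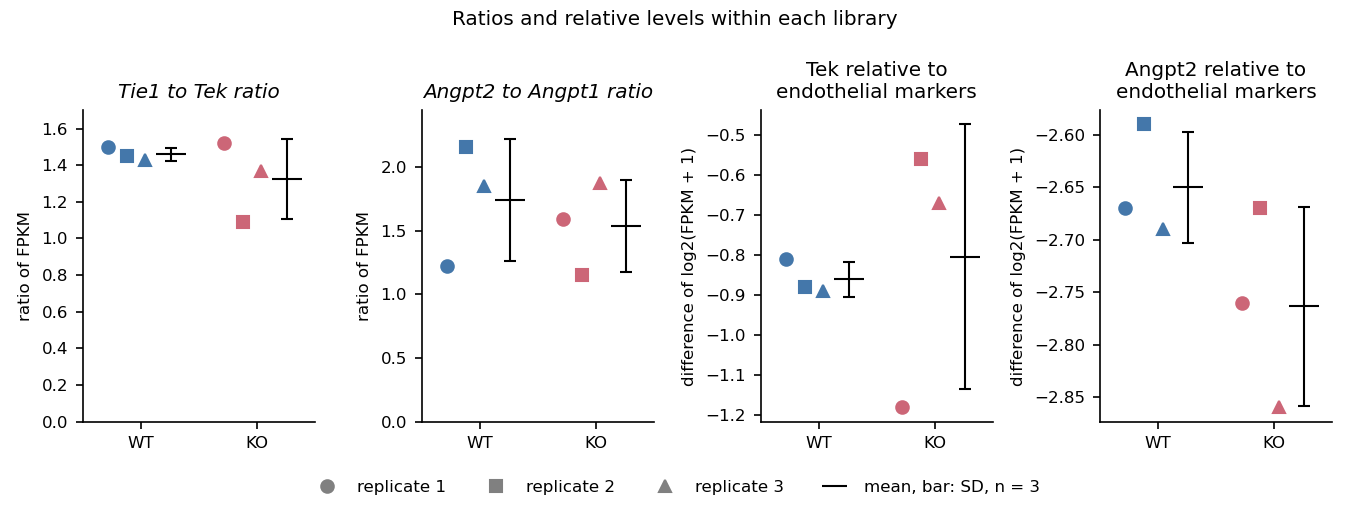
Ratio of *Tie1* to *Tek* and of *Angpt2* to *Angpt1* in FPKM (axes from 0), and level of *Tek* and *Angpt2* relative to the mean of 10 endothelial markers as a difference of log2(FPKM + 1) (axes not from 0). Points are libraries, with the mean and SD (n = 3). Without GC correction, the *Tie1* to *Tek* ratio is 1.43 to 1.5 in WT mice and falls to 1.09 in KO 2, and every panel has overlapping groups.

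The endothelial markers were all present, with a summed level of 1000 to 1330 FPKM in the WT group and 864 to 1190 FPKM in the KO group. Of the 10, 6 had a log2 fold change below 0 and 4 above 0, and the list was not uniform. *Cdh5*, the VE-cadherin of endothelial junctions, had a mean of 90.1 ± 3.02 FPKM in the WT group and 43.8 ± 6.42 FPKM in the KO group, with every KO library below every WT library (limma adjusted p = 0.841), and *Emcn* lay higher in every KO library. The pericyte markers summed to 863 to 1380 FPKM in the WT group and 903 to 1020 FPKM in the KO group, and 9 of 10 had a log2 fold change below 0. In 4 of them, *Pdgfrb*, *Cspg4*, *Anpep* and *Notch3*, every KO library lay below every WT library, with log2 fold changes of −0.39, −0.49, −0.46 and −0.21 (limma adjusted p of 0.841 to 0.89), an arrangement found in 5.7% of all genes tested. The 6 astrocyte markers all had lower means, with sums of 593 to 699 FPKM against 449 to 499 FPKM. In 2 of them, *Gfap* and *Gja1*, every KO library lay below every WT library (5.7% of all genes tested), and the others had overlapping groups. The 6 smooth muscle markers all had higher means, with sums of 391 to 854 FPKM against 410 to 1070 FPKM. The 6 choroid plexus markers reached 8990 and 10900 FPKM in KO 1 and KO 3 against 2940 to 3390 FPKM in the other libraries. Neuron, oligodendrocyte, microglia and erythroid markers were also measured, at 328 to 611, 422 to 561, 78.3 to 102 and 1770 to 2420 FPKM in the WT group and 208 to 486, 248 to 473, 70.0 to 80.1 and 1210 to 2340 FPKM in the KO group. The erythroid gene *Hbb-bs* was at 0 in 4 libraries. The part of these cell types in the levels of the Tie genes was not tested.

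The wider pathway was described with lists of 71 genes, of which 70 had a row and 66 passed the filter. Of these 66, 46 had a log2 fold change below 0 and 20 above 0, with a median of −0.11, where 50.8% of all genes tested were below 0 and their median was −0.006. Genes of the lists are called lower or higher by that sign, on the log2(FPKM + 1) scale, which for genes near 0 can differ from the order of the FPKM means. At an adjusted p under 0.05 limma called 0 of the 66, and at an unadjusted p under 0.05 it picked 5 (7.58%). Among these 5 was *Fabp4*, which passed the filter only through its KO values. Groups did not overlap in 4 genes with lower KO values (6.06%) and in 3 with higher KO values (4.55%). The shares at an unadjusted p under 0.05 and without overlap are near those of all genes given above.

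**Figure D4:**
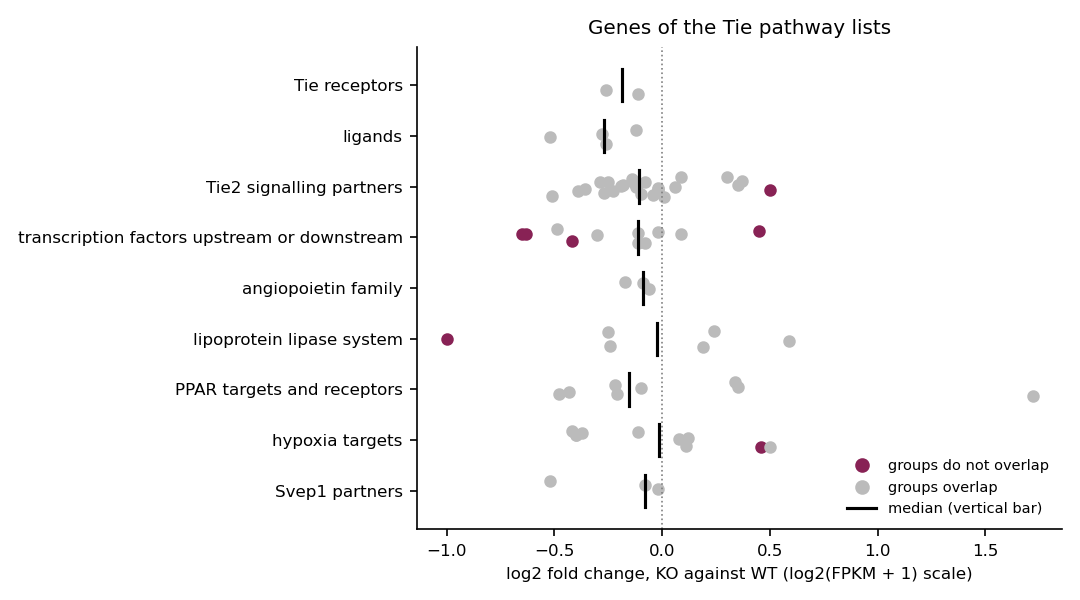
Log2 fold change, KO against WT, of each gene tested on the member and pathway lists, on the log2(FPKM + 1) scale, 1 point per gene. Vertical bars are list medians, and dark points are genes whose WT and KO libraries do not overlap. Medians lie between −0.27 for the ligands and −0.01 for the hypoxia targets.

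The 26 signalling partners of Tie2, which include its phosphatase, adaptors and the PI3K and Akt enzymes, had a median log2 fold change of −0.10, with 19 lower and 7 higher. *Ptprb* encodes VE-PTP, which dephosphorylates Tie2. It was measured at 46.4, 36.0 and 30 FPKM in the WT group and 34.1, 38.7 and 29.5 FPKM in the KO group. The groups overlapped almost completely, with a log2 fold change of −0.12 ± 0.22 (limma adjusted p = 0.96). *Rasa1*, a Ras GTPase activating protein named after its values were seen, was at 10.4, 6.52 and 10.4 FPKM in the WT group and 10.5, 17.0 and 12.5 FPKM in the KO group. It was the partner without overlap between the groups, by a narrow margin between WT 1, WT 3 and KO 1, with a log2 fold change of 0.50 ± 0.26 (limma adjusted p = 0.841).

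Of 11 transcription factors placed upstream or downstream of Tie2, 9 were lower and 2 higher in KO mice. The flow-responsive endothelial factor *Klf2* was measured at 58.2, 48.5 and 40.5 FPKM in the WT group and 30.8, 31.0 and 29.8 FPKM in the KO group. All KO libraries lay close together and below every WT library. Its log2 fold change was −0.65 ± 0.20 (limma adjusted p = 0.841; exact permutation p = 0.1, the smallest possible). Its relative *Klf4* was measured at 24.2, 27.5 and 22.3 FPKM in the WT group and 13.8, 13.9 and 19.5 FPKM in the KO group, again without overlap. The log2 fold change of *Klf4* was −0.63 ± 0.21 (limma adjusted p = 0.841; exact permutation p = 0.1). *Foxo1*, which Akt restrains downstream of Tie2 and which drives *Angpt2*, was measured at 17.9, 23.2 and 15.7 FPKM in the WT group and 19.2, 16.3 and 25.0 FPKM in the KO group. KO 3 was the highest and WT 3 the lowest, and the other libraries were mixed, with a log2 fold change of 0.09 ± 0.23 (limma adjusted p = 0.97). *Ets1* and *Hif1a*, named after their values were seen, also had no overlap between groups, with log2 fold changes of −0.42 and 0.45 (limma adjusted p = 0.841 for both).

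Among the other angiopoietin family genes, *Angpt4*, a further Tie2 ligand, was listed at 0 in all 6 libraries. *Angptl1* did not pass the filter, and *Angptl8* was not analysed here. The 3 genes tested, *Angptl2*, *Angptl6* and *Angptl7*, had log2 fold changes between −0.17 and −0.06.

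The partners of *Angptl4* in lipid handling were split, with 3 of 6 genes lower and 3 higher and a median of −0.02. *Lpl*, the lipase that *Angptl4* protein inhibits, was measured at 20.8, 31.1 and 36.6 FPKM in the WT group and 41.2, 41.0 and 23.3 FPKM in the KO group. WT 1 and KO 3 were the low libraries, and the log2 fold change was 0.24 ± 0.28 (limma adjusted p = 0.932). It was 0.01 without WT 1 and 0.50 without KO 3. *Gpihbp1*, which carries the lipase to the capillary lumen, was at 0.137, 2.45 and 6.27 FPKM in the WT group and 3.18, 1.90 and 2.52 FPKM in the KO group. WT libraries spanned the whole KO range, and the WT 1 value rested on an estimated 3 fragments. The proprotein convertase gene *Pcsk6* was at 3.96, 4.68 and 7.35 FPKM in the WT group and 2.35, 1.29 and 2.86 FPKM in the KO group. Every KO library lay below every WT library, with a log2 fold change of −1.0 ± 0.32 (limma adjusted p = 0.841; exact permutation p = 0.1).

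*Angptl4* is a known target of PPAR receptors and of hypoxia. Of 8 PPAR genes tested, 5 were lower and 3 higher, with a median of −0.16. The receptor gene *Pparg* did not pass the filter. It was at 0.411, 0 and 0.307 FPKM in the WT group and 1.04, 1.27 and 2.28 FPKM in the KO group, so every KO library was above every WT library at a low level (exact permutation p = 0.1), and it was not in the limma fit. *Fabp4*, named like *Pparg* after its values were seen, was at 0, 0 and 1.67 FPKM in the WT group and 9.82, 4.17 and 0.723 FPKM in the KO group, so the groups overlapped. Its log2 fold change was 1.72 ± 0.65, with a limma unadjusted p of 0.0249 and an adjusted p = 0.841. *Fabp4* passed the filter only through its KO values, with a mean of 0.557 FPKM in the WT group and 4.9 FPKM in the KO group. This fold change and its p-values therefore describe the libraries only and are not a test. The 10 hypoxia targets were evenly split with a median of −0.01. *Vegfa*, the main vascular growth factor, was measured at 24.4, 19.0 and 17.9 FPKM in the WT group and 28.9, 30.3 and 25.6 FPKM in the KO group. Every KO library exceeded every WT library, with a log2 fold change of 0.46 ± 0.20 (limma adjusted p = 0.841; exact permutation p = 0.1). The 3 partners of *Svep1* had log2 fold changes from −0.52 to −0.02, with a median of −0.08.

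**Figure D5:**
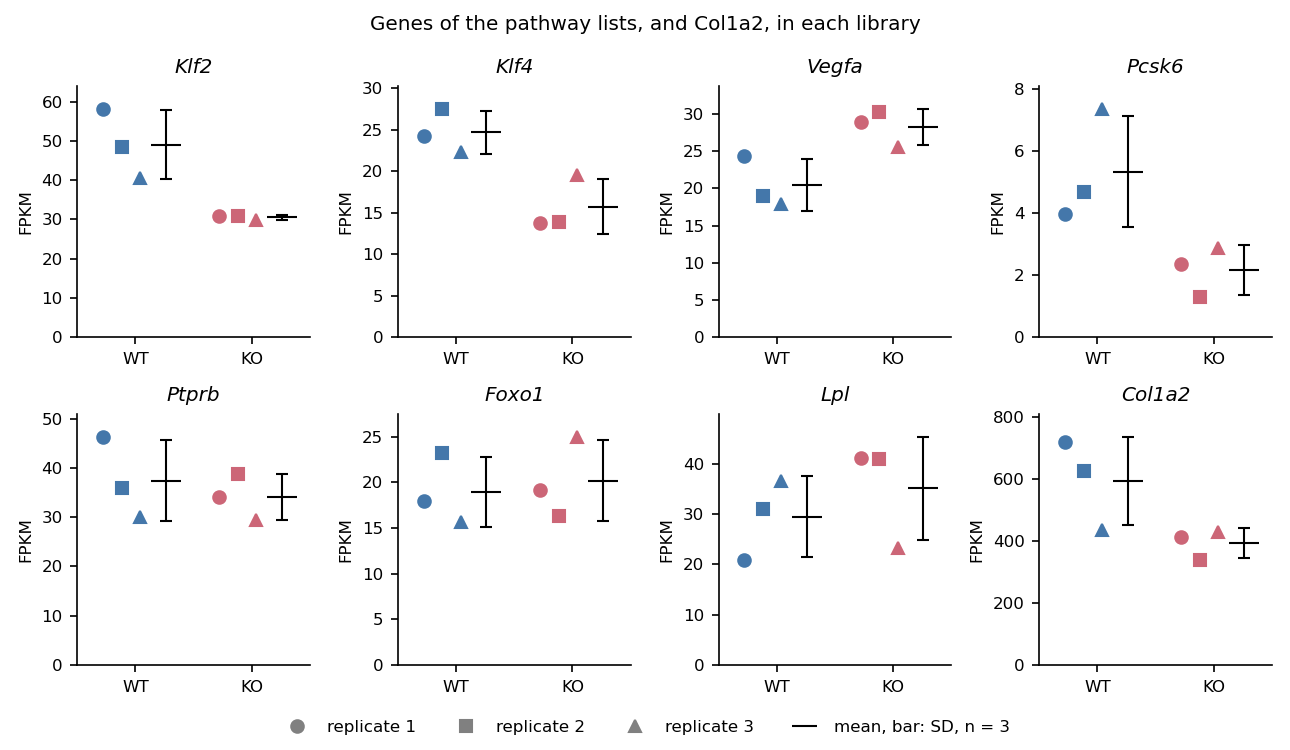
FPKM (y axes from 0) of 7 genes of the pathway lists and of *Col1a2* in WT libraries (blue) and KO libraries (red), with the mean and SD (n = 3). *Klf2*, *Klf4*, *Pcsk6* and *Col1a2* lie lower and *Vegfa* higher in every KO library, while *Ptprb*, *Foxo1* and *Lpl* overlap.

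The genes whose pattern over the 6 libraries was closest to each member were found by the root mean square difference of log2(FPKM + 1) after each gene was centred on its mean. *Tek* was nearest to *Nt5c2* (0.033), *Med17* (0.054) and *Flt1* (0.055), the last a VEGF receptor of ECs and one of the 10 endothelial markers. *Tie1* was nearest to *Anxa7* (0.032), *Ankrd13a* (0.04) and *Tada2b* (0.047). *Angpt2* was nearest to *Fmo1* (0.031), *Ppp1r37* (0.038) and *Mogs* (0.056). For comparison, the members' own root mean square deviation over the libraries was 0.153 for *Tek*, 0.214 for *Tie1* and 0.196 for *Angpt2*. *Angpt1* was nearest to *1810030O07Rik* (0.069), *Cemip* (0.074) and *Gpc3* (0.079), and *Angptl4* to *Fam63a* (0.034), *Mrpl53* (0.065) and *Tap2* (0.088). *Svep1*, with a deviation of 0.355, was nearest to *Col1a2* (0.042), a collagen I chain and fibroblast marker, followed by *Lamb2* (0.054), a laminin chain of basement membranes, and *Mpp6* (0.073). *Col1a2* was measured at 717, 625 and 436 FPKM in the WT group and 411, 337 and 430 FPKM in the KO group. As with *Svep1*, WT 1 and WT 2 were the highest libraries and KO 2 the lowest. These are descriptions over 6 libraries chosen among 14247 genes.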

How the data were processed

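RNA of cerebral microvessels from 3 WT and 3 KO samples was sequenced as paired-end directional libraries. The authors trimmed reads, mapped them with TopHat (mm10, per the submitters' processing notes) and deposited 1 FPKM value per gene symbol and library. The program that computed FPKM and its annotation are not given in the sources used here. The authors tested genes with DESeq2, and since the deposited values are FPKM and not counts, no count model was run here. Genes averaging 1 FPKM or more over all libraries were tested as log2(FPKM + 1) with limma 3.58.1 (trended prior variance, R 4.3.3), KO against WT, with Benjamini-Hochberg adjustment over 14247 genes and no block. Single values were compared by two-sided exact permutation tests over libraries. Depth was estimated from the spacing of low FPKM values of 2327 genes with 1 transcript. Of 23183 symbols, 22148 matched GENCODE M21 (GRCm38) by symbol and 666 by a synonym, for length, GC content and position. Same-numbered WT and KO libraries did not deviate together (correlations of 0.037, 0.027 and 0.002), so the numbers were not used as pairs. Libraries are numbered by their sample titles, whereas the file headers carry other numbers for the WT libraries and for KO 3. The members and gene lists were chosen with earlier results of these data known. Pathway genes were named where the unadjusted p was under 0.05 and the groups did not overlap, plus *Ptprb*, *Foxo1*, *Angpt4*, *Lpl* and *Gpihbp1* by role, and others are said to be named after their values were seen. Alternatives were other filters (none, 5 FPKM), a pseudocount of 0.1, trimmed-mean, median and quantile scaling, GC and length correction, limma without a trend, a replicate block, and each library left out.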

Additional observations from a re-analysis of the deposited data

How the results depend on the processing

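None of the 6 members reached a limma adjusted p under 0.05 under any of up to 16 alternatives, where the lowest adjusted p ranged from 0.602 for *Svep1* to 0.837 for *Angptl4*. *Tek*, *Tie1*, *Angpt2*, *Angptl4* and *Svep1* had a lower KO mean under each, with *Svep1* giving no value at the 5 FPKM filter. GC correction moved *Tek* to −0.17, *Angpt1* to −0.30 and the *Tie1* to *Tek* ratio to 0.05, the last chosen after seeing the data. With each library left out in turn, log2 fold changes ranged from −0.27 to 0.12 for *Angpt1*, from −0.07 to 0.23 for *Foxo1*, from −0.52 to 0.82 for *Gpihbp1*, from 0.01 to 0.50 for *Lpl* and from −0.26 to 0.04 for *Ptprb*. The difference of log2 ratios ranged from −0.41 to 0.02 for *Angpt2* to *Angpt1*, from −0.26 to −0.02 for *Tie1* to *Tek* and from −0.19 to 0.25 for *Angpt1* to *Tek*. Relative to markers it ranged from −0.06 to 0.25 for *Tek*, from −0.19 to −0.01 for *Tie1*, from −0.16 to −0.06 for *Angpt2* and from −0.01 to 0.30 for *Angpt1*, and relative to *Pecam1* alone it was −0.20 for *Tek*, −0.35 for *Tie1* and −0.37 for *Angpt2*. The cause of these changes was not tested. The count of genes at an unadjusted p under 0.05 ranged from 450 without WT 2 to 1871 without KO 2, and was 510 without KO 1. The count at an adjusted p under 0.05, 0 with all libraries, was 1 without WT 3 and 4 without KO 2 or KO 3. With the replicate block the unadjusted count was 871, the adjusted count stayed at 0, and no call on a gene refitted changed. Having 3 libraries per group limits every comparison, and the 95% intervals of the members reach folds of 0.441 to 1.43.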
